A study of Mus musculus with 6 samples.

Results

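The genes described here are 8 genes of Schwann cells and peripheral myelin, *Sox10*, *Egr2*, *Erbb3*, *Pmp22*, *Mbp*, *Mag*, *Prx* and *S100b*, chosen by name from the 56262 genes of the count table and followed from WT to *SYISL* KO leg muscle. All 8 were found by gene identifier, and all 8 passed the filter on low counts, with at least 127 counts in every sample. RNA-seq was run on fetal leg muscle taken at embryonic day 18.5, in 3 WT samples and 3 samples of *SYISL* KO fetuses, which lack a long noncoding RNA expressed in muscle. Each genotype was bred by mating mice of the same genotype, and the WT mice came from an animal center, so the fetuses compared were not littermates and genotype cannot be told apart from litter or maternal effects. The labels do not say whether a sample is 1 fetus or a pool, so p-values measure only the spread between these samples. No annotated gene carries the name *SYISL*, so these counts give no check of its loss.

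Schwann cells are the glia of peripheral nerves, which run between the muscle fibers as branches to endplates and sensory endings. Neuregulin on the axon signals through the receptor pair ERBB2 and ERBB3, SOX10 keeps the cells in the lineage and switches on *Egr2*, and EGR2 together with SOX10 drives the genes of myelin. Around birth, mouse Schwann cells sort axons, and those that pair with a single large axon begin to wrap it. Compact myelin is held together by proteins such as PMP22 and MBP, the periaxonal membrane carries MAG, and periaxin (*Prx*) lies at the outer face of the sheath.

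Levels are given as CPM, a gene's counts scaled to the library total after trimmed mean of M-values (TMM) correction, and genotypes were compared gene by gene in a quasi-likelihood fit of edgeR. An adjusted p-value under 0.05 is called passing the test, and a gene is called higher or lower in KO when its fold change is also over 1.5. Libraries held 82054811 to 102233181 counts, and a gene with a count of 0 could still stand at 0.0293 to 0.0366 CPM (3 counts, counting error only). Among the 22071 genes tested, 8.31% were called higher and 8.39% lower, and without the fold limit 21.9% were higher and 23.1% lower (45% in all). The WT and KO values did not overlap for 55.9% of genes.

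The promoters of *Mag*, *Pmp22* and *Prx* are shown because all of them passed the test as higher in KO. They are RefSeq sequences of build GRCm38.p6, read 5′ to 3′ on the strand of the gene, and cover the 250 bases before the most upstream RefSeq start. *Mag* is on the minus strand at chr7:30914923-30915172, *Pmp22* on the plus strand at chr11:63128732-63128981, and *Prx* on the plus strand at chr7:27499074-27499323. Capitals mark each match to the SOX core ACAANG on either strand.
Mag: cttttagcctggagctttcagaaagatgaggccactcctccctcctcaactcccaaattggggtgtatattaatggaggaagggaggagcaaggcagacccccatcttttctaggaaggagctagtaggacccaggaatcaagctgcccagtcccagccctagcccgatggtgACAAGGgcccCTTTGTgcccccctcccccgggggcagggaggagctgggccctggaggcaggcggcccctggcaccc
Pmp22: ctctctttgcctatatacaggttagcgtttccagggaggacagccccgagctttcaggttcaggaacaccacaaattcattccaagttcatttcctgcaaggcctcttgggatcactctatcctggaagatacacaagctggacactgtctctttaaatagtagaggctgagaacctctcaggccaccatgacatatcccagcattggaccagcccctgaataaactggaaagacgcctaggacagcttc
Prx: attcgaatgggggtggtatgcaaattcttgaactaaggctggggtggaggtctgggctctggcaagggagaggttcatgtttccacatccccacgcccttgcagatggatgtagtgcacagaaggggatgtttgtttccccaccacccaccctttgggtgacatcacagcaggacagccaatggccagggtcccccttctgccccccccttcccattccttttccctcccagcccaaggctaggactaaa
*Mag* held 2 matches, starting 77 and 67 bases before the start on opposite strands. The windows of *Pmp22* and *Prx* held 0, which says only that these letters are not in these windows, and 36.6% of the 27025 RefSeq promoters of this length hold at least 1. The EGR core GCGNGGGCG, found in 4.63% of them, matched none of the windows of *Egr2*, *Mag*, *Pmp22*, *Prx* and *S100b*, the 5 of 8 members searched. Gene counts do not separate transcripts from different starts.

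Of the 8 members, 5 were higher in KO and passed the test (*Sox10*, *Pmp22*, *Mbp*, *Mag* and *Prx*), 1 was lower (*Erbb3*), and *Egr2* and *S100b* did not pass. Of all genes tested, 21.9% passed as higher and 23.1% as lower. With the fold limit, *Mag* alone was called higher and *Erbb3* alone lower, that is 1 of 8 in each direction beside 8.31% and 8.39% of all genes. Their median log2 fold change was 0.34, where the median of all genes tested was -0.0041. The WT and KO values did not overlap for 6 of the 8, beside 55.9% of all genes tested. In bulk tissue, more cells of a type and more RNA per cell cannot be told apart.

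**Figure D1:**
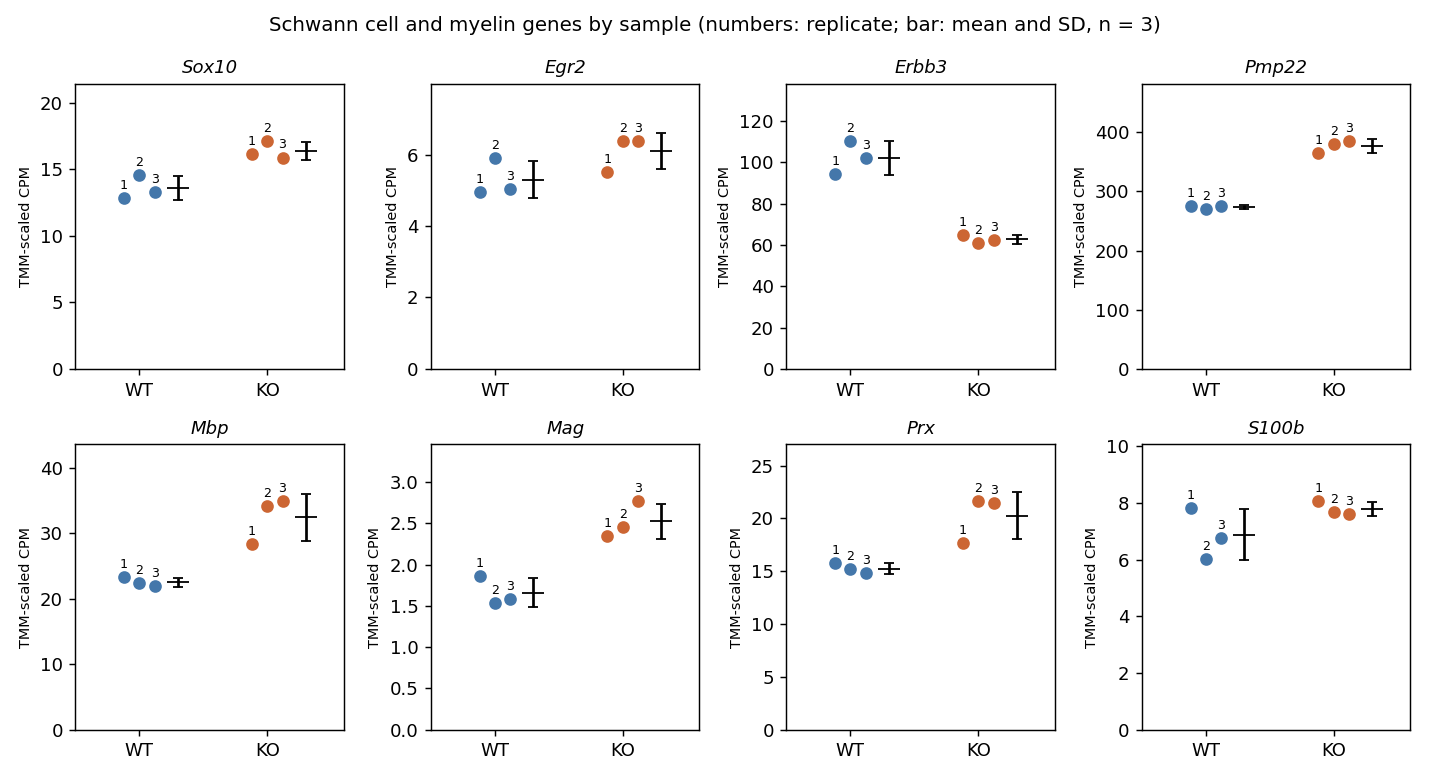
Level of each of the 8 genes in every sample, in TMM-scaled CPM on axes that start at 0, with the replicate number beside each point and the mean and SD of 3 samples as a bar. *Pmp22*, *Mbp*, *Mag*, *Prx* and *Sox10* lie higher in all KO samples than in any WT sample, *Erbb3* lies lower, and *Egr2* and *S100b* overlap.

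Compared per kilobase of annotated exon, *Pmp22* was the most abundant member, at 116 ± 1.09 RPKM in WT and 160.1 ± 4.76 RPKM in KO (SD, n = 3 each). *Erbb3* followed at 17.0 ± 1.36 RPKM in WT. *S100b* (4.63 ± 0.610 RPKM) and *Sox10* (4.45 ± 0.291 RPKM) came next in WT and differed by less than their spread. The same held for *Prx* (2.74 ± 0.0909 RPKM) and *Mbp* (2.66 ± 0.0858 RPKM). *Egr2* stood at 1.56 ± 0.155 RPKM and *Mag*, the lowest, at 0.408 ± 0.0429 RPKM. In KO, *Sox10* (5.37 ± 0.219 RPKM) and *S100b* (5.25 ± 0.159 RPKM) again differed by less than their spread. The exon lengths are unions over annotated transcripts, so these levels understate genes with long rare exons. *Pmp22* is also transcribed outside Schwann cells, so its level does not measure myelin alone.

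*Sox10* (ENSMUSG00000033006.10, chromosome 15, 79154908 to 79165240 in mm10) encodes the transcription factor that all Schwann cells carry. Its level was 12.9, 14.6 and 13.3 CPM in the WT samples and 16.1, 17.1 and 15.9 CPM in the KO samples. Every KO sample was above every WT sample, with WT replicate 2 and KO replicate 3 the nearest to each other. The log2 fold change was 0.27 (SE 0.065, edgeR adjusted p = 0.00769, by the Benjamini-Hochberg method over all genes tested). *Egr2* (ENSMUSG00000037868.15, chromosome 10, 67535475 to 67542188), the factor that drives myelination, had 4.96, 5.91 and 5.03 CPM in WT and 5.53, 6.39 and 6.38 CPM in KO. The groups overlapped, with KO replicate 1 under WT replicate 2. Its log2 fold change was 0.20, with a 95% interval from -0.0065 to 0.42 (edgeR adjusted p = 0.106). *Egr2* passed the test with upper-quartile factors (edgeR adjusted p = 0.0303), without WT replicate 2 (0.0307) and without KO replicate 1 (0.0356). With library size only, its log2 fold change was 0.14. *Egr2* is also an immediate early gene, one that cells switch on within minutes of a stimulus. Among 9 other immediate early genes, 3 were called higher and 2 lower, beside 8.31% and 8.39% of all genes tested. The sum of these 9 overlapped between genotypes, at 182 to 203 CPM in WT and 187 to 218 CPM in KO. *Nr4a1* rose from 22.7 ± 0.486 to 37.2 ± 2.91 CPM and *Egr1* from 55.9 ± 1.47 to 79.3 ± 5.55 CPM (SD, n = 3 each). Their part in the values of *Egr2* was not tested.

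*Erbb3* (ENSMUSG00000018166.8, chromosome 10, 128567523 to 128589652) encodes the neuregulin receptor of Schwann cells and was the member that fell. It had 94.2, 110.5 and 102.1 CPM in the WT samples and 64.9, 60.8 and 62.5 CPM in the KO samples. No KO value came near a WT value, and the WT samples were spread more widely than the KO samples. The log2 fold change was -0.70 (SE 0.058, edgeR adjusted p = 9.84e-06), a level 1.63-fold higher in WT. *Erbb3* is also expressed by epithelia, among them epidermis. The 10 keratinocyte markers examined were all called lower in KO, and their summed level was 16958, 25009 and 18781 CPM in the WT samples and 777, 898 and 849 CPM in the KO samples. Within WT, both *Erbb3* and the keratinocyte sum were lowest in replicate 1, higher in replicate 3 and highest in replicate 2. This order was also that of 25.5% of all genes tested and 57.0% of all genes called lower. The part of epidermal RNA in the fall of *Erbb3* was not tested.

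The 2 members that belong to compact myelin, *Pmp22* and *Mbp*, passed the test as higher in KO, both below the fold limit. *Pmp22* (ENSMUSG00000018217.12, chromosome 11, 63128982 to 63159547), whose gene dosage causes inherited neuropathy, had 275, 271 and 275 CPM in WT and 364, 381 and 386 CPM in KO. The WT samples were within a few CPM of each other, and the KO samples all stood above them. Its log2 fold change was 0.46 (SE 0.043, edgeR adjusted p = 2.43e-05), the smallest standard error of the 8 genes and below the fold limit. *Mbp* (ENSMUSG00000041607.17, chromosome 18, 82475146 to 82585637), which encodes myelin basic protein, had 23.3, 22.4 and 21.9 CPM in WT and 28.4, 34.2 and 34.9 CPM in KO. KO replicate 1 lay between WT and the other KO samples, as it also did for *Prx*. The log2 fold change of *Mbp* was 0.53 (SE 0.077, edgeR adjusted p = 4.24e-04). It passed the 1.5-fold limit without KO replicate 1 (0.62) and with upper-quartile factors (0.60). The *Mbp* locus also makes Golli transcripts, which are not confined to glia, and gene counts do not separate these.

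*Mag* (ENSMUSG00000036634.15, chromosome 7, 30899176 to 30914873), whose promoter with paired SOX cores is shown above, encodes the myelin-associated glycoprotein that faces the axon. It had 1.86, 1.54 and 1.58 CPM in WT and 2.35, 2.46 and 2.77 CPM in KO, or 127 to 176 and 220 to 269 counts. The groups did not overlap, and its log2 fold change was 0.60 (SE 0.11, edgeR adjusted p = 0.00221), close to the fold limit. The call of *Mag* was lost with library size as the only scaling (0.53), without WT replicate 2 (0.55), without WT replicate 3 (0.57) and without KO replicate 3 (0.54), each time by the fold limit and not by the adjusted p. *Prx* (ENSMUSG00000053198.14, chromosome 7, 27499324 to 27520214), which links the sheath to the basal lamina through dystroglycan, had 15.8, 15.2 and 14.8 CPM in WT and 17.7, 21.6 and 21.4 CPM in KO. All KO values were above WT, and the log2 fold change was 0.41 (SE 0.080, edgeR adjusted p = 0.00265). An antisense gene, *Gm15541*, shares 300 bases of exon with *Prx* and had at most 92 counts in a sample, where *Prx* had 1255 to 2086.

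*S100b* (ENSMUSG00000033208.7, chromosome 10, 76253853 to 76261159), a calcium-binding protein used to mark Schwann cells, had 7.83, 6.03 and 6.77 CPM in WT and 8.06, 7.67 and 7.63 CPM in KO. WT replicate 1 stood above KO replicates 2 and 3, so the groups overlapped. The log2 fold change was 0.18, with a 95% interval from -0.033 to 0.39 (edgeR adjusted p = 0.155). *S100b* passed the test only without WT replicate 1 (0.28, edgeR adjusted p = 0.0291) and in a fit with a covariate (edgeR adjusted p = 0.0452). The covariate, chosen after seeing the data, was the keratinocyte level centered within each genotype. It could therefore not adjust for the keratinocyte difference between WT and KO. *Egr2* also passed in that fit (edgeR adjusted p = 0.0415). The log2 fold change of *S100b* was 0.092 without WT replicate 2 (edgeR adjusted p = 0.424) and 0.11 with library size only (edgeR adjusted p = 0.415). Chondrocytes and adipocytes can also express *S100b*. Of 10 chondrocyte markers 7 were called lower and 1 passed the test as higher, below the fold limit. The sum of the 10 ranged from 672 to 816 CPM in WT and from 613 to 618 CPM in KO. Of 8 adipocyte markers 7 were called higher, and their sum ranged from 136 to 168 CPM in WT and from 407 to 469 CPM in KO. Their part in the level of *S100b* was not tested.

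The level of each other member was also divided by that of *Sox10* in the same sample, on a log2 scale with 0.5 CPM added. *Sox10* was itself higher in KO and is also made by melanocytes, so the ratio compares each gene with *Sox10* and is no measure per Schwann cell. This ratio does not depend on how libraries are scaled, apart from the added 0.5 CPM. With 3 samples against 3, the exact two-sided permutation test cannot go below p = 0.1, so none of the 7 ratios could pass 0.05. The ratio of *Erbb3* to *Sox10* was 2.83, 2.88 and 2.90 in WT and 1.98, 1.80 and 1.94 in KO, a difference of -0.96 without overlap (exact permutation test, p = 0.1, 0.35 after Benjamini-Hochberg adjustment over the 7). The ratio of *Pmp22* to *Sox10* was 4.37, 4.17 and 4.32 in WT and 4.45, 4.43 and 4.56 in KO, higher by 0.20 without overlap (exact permutation test, p = 0.1, adjusted 0.35). For the other 5 genes the WT and KO ratios overlapped. The differences were 0.25 for *Mbp*, 0.22 for *Mag* and 0.13 for *Prx*, against -0.077 for *Egr2* and -0.090 for *S100b*, with exact p-values between 0.2 and 0.7. Those of *Mag*, *Prx*, *Egr2* and *S100b* moved by over 1.5 times when 1 sample was left out. The difference of *Mag* was 0.13 without WT replicate 2 and 0.14 without KO replicate 3, and that of *Prx* was 0.074 without WT replicate 2, 0.062 without KO replicate 3 and 0.21 without KO replicate 1. For *Egr2* it was -0.023 without KO replicate 1 and -0.13 without KO replicate 3. For *S100b* it was -0.23 without WT replicate 2, -0.048 without KO replicate 2 and 0.037, the opposite direction, without WT replicate 1.

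**Figure D2:**
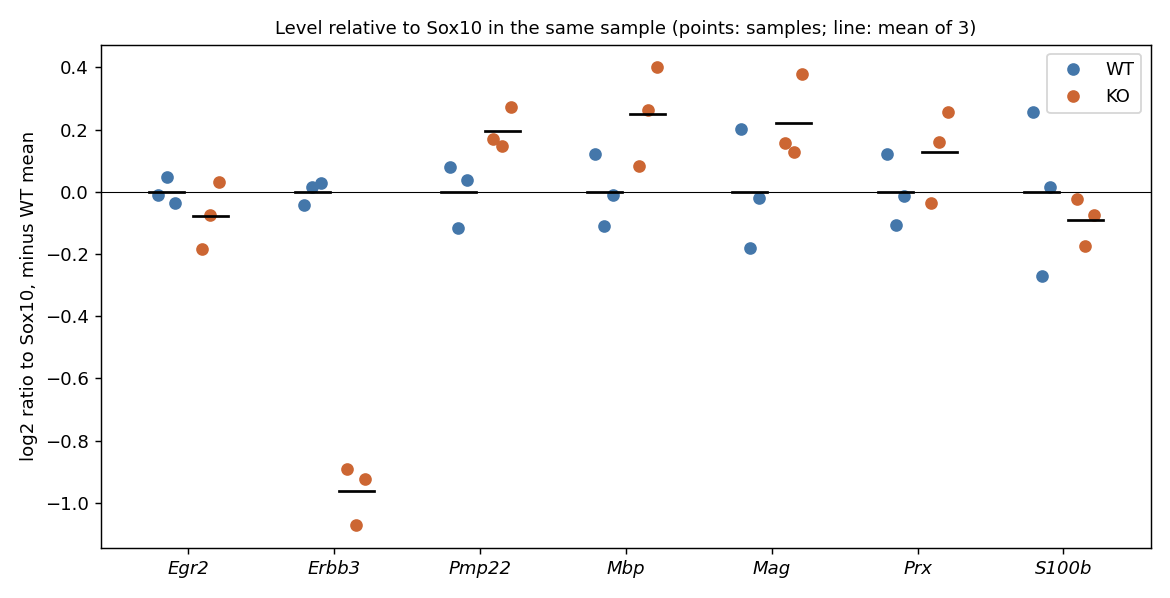
Log2 ratio of each gene to *Sox10* in the same sample, with the WT mean of that gene set to 0, for 3 WT samples in blue and 3 KO samples in orange, and the group means as lines. *Erbb3* stands apart by -0.96, *Pmp22* by 0.20 without overlap, and the other 5 genes overlap between genotypes.

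Across the 6 samples, *Sox10* was compared with 15872 genes of a mean of at least 1 CPM by the Pearson correlation of log2 CPM. The 5 genes most like it were *Pfkfb4* (r = 0.996), *Tbc1d10b* (0.992), *Ndrg4* (0.991), *Shld2* (0.991) and *Gm6277* (0.987). Among the members, r with *Sox10* was 0.89 for *Pmp22*, 0.85 for *Egr2* and *Mbp*, 0.83 for *Prx*, 0.76 for *Mag*, 0.32 for *S100b* and -0.84 for *Erbb3*. These are descriptions over 6 libraries that share the genotype contrast, and *Pmp22*, the member most like *Sox10*, ranked 1344 of 15872.

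A wider set of 54 genes of Schwann cells, grouped by role and including the 8 members, was followed to place them. The lists were chosen with earlier results of these data known. All 54 were tested, and 8 were called higher and 9 lower, beside 8.31% and 8.39% of all genes tested. Without the fold limit 27 passed the test higher and 17 lower, beside 21.9% and 23.1% of all genes. The median log2 fold change of the 54 was 0.20, and that of the 46 genes outside the members was 0.16.

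**Figure D3:**
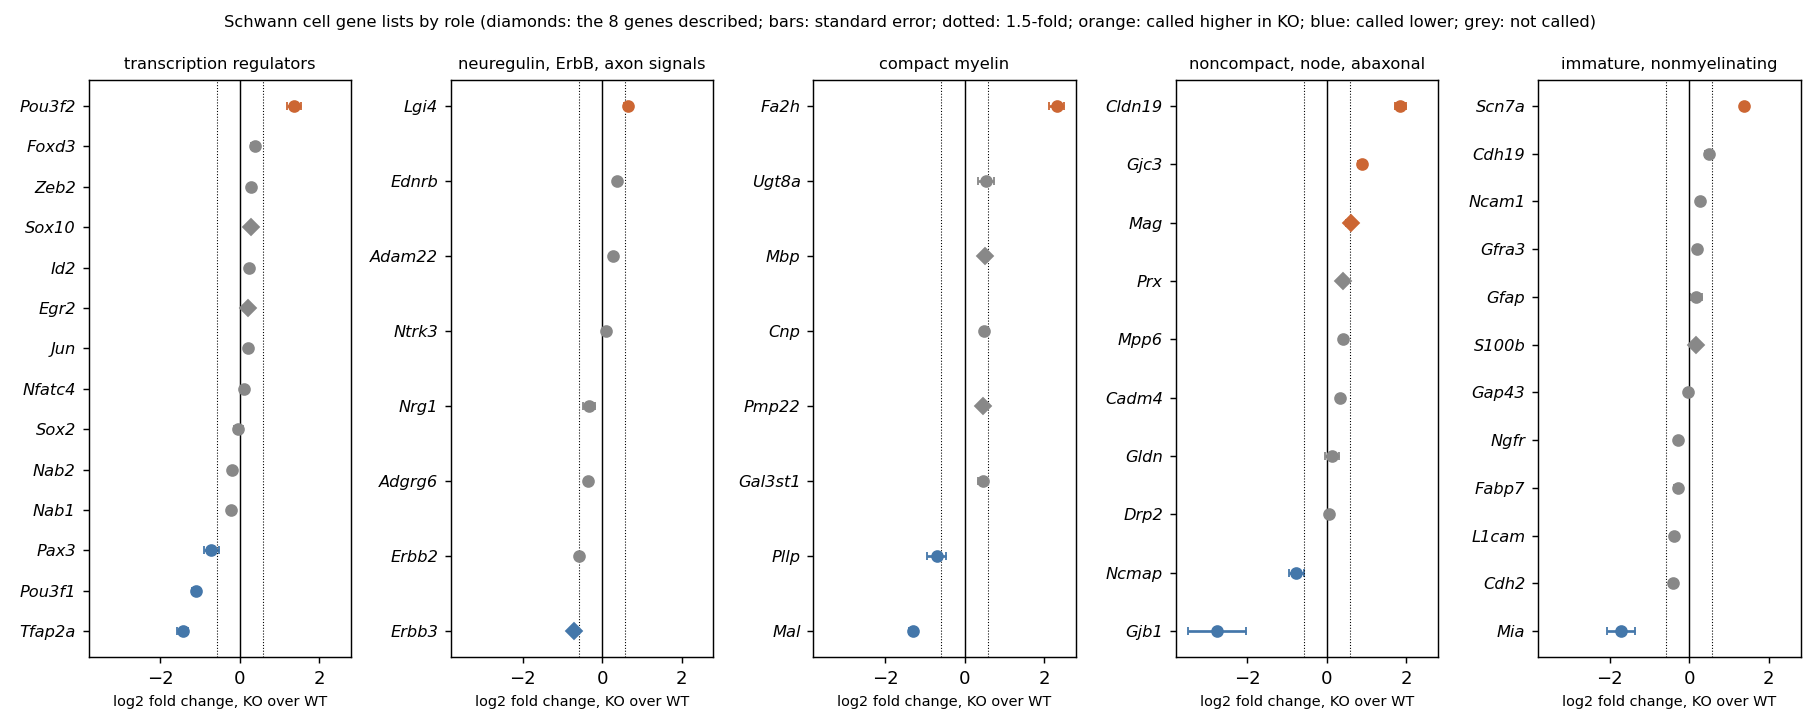
Log2 fold change of KO over WT with its standard error (SE) for 52 of the 54 Schwann cell genes in 5 role groups, with members as diamonds, dotted lines at the 1.5-fold limit, and calls in orange (higher) and blue (lower). Compact myelin genes lie mostly right of 0, with *Fa2h* farthest, while *Erbb3*, *Tfap2a*, *Pou3f1*, *Mal* and *Gjb1* lie left.

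Compact myelin genes had the highest median of the 5 role groups, a log2 fold change of 0.48 over 10 genes. Of these 10, 8 passed the test higher and 2 lower, beside 21.9% and 23.1% of all genes tested. *Fa2h*, which makes the hydroxylated fatty acids of myelin lipids, rose from 0.236 ± 0.0427 to 1.18 ± 0.129 CPM, that is 2.32 in log2 fold change. *Cnp*, an enzyme of the myelin membrane, rose from 20.5 ± 0.437 to 28.7 ± 1.68 CPM, below the fold limit. Against these, *Mal*, a membrane raft protein that epithelia also express, fell from 35.5 ± 5.15 to 14.4 ± 0.0473 CPM. *Pllp*, the proteolipid plasmolipin, was called lower at 0.362 ± 0.0326 and 0.224 ± 0.0582 CPM, but leaving out any sample other than KO replicate 1 ended its call. With all samples kept, the call of *Pllp* was also lost with DESeq2 (DESeq2 adjusted p = 0.152) and with upper-quartile factors (edgeR adjusted p = 0.0594).

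Among 10 genes of the periaxonal, noncompact, nodal and outer membranes, 3 were called higher and 2 lower. Of all genes tested, 8.31% were called higher and 8.39% lower. Those of the group called higher were *Mag*, *Cldn19* and *Gjc3*. *Cldn19*, a claudin of the tight junctions in the myelin sheath, rose from 1.02 ± 0.0559 to 3.67 ± 0.539 CPM, that is 1.85 in log2 fold change (SE 0.13, edgeR adjusted p = 3.83e-06). *Gjc3*, a glial connexin, rose from 4.67 ± 0.344 to 8.64 ± 1.11 CPM. *Mpp6*, a scaffold of Schwann cell membranes, rose from 59.5 ± 3.52 to 78.2 ± 6.40 CPM and *Cadm4*, the glial adhesion partner of the axon, from 15.5 ± 0.527 to 19.5 ± 1.03 CPM, both below the fold limit. *Ncmap*, a protein of noncompact myelin, was called lower, from 0.672 ± 0.0770 to 0.394 ± 0.0552 CPM. *Gjb1*, a connexin of myelin and of epithelia, had 57, 10 and 16 counts in WT and 4 in each KO sample. Its log2 fold change of -2.77 rested on WT replicate 1 and was -1.69 without it, and its call was lost without KO replicate 3.

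The transcription regulators were split. Of 14 tested, 1 was called higher (*Pou3f2*) and 3 lower (*Tfap2a*, *Pou3f1* and *Pax3*), beside 8.31% and 8.39% of all genes tested. Without the fold limit, 7 passed the test higher and 5 lower, beside 21.9% and 23.1% of all genes. The median log2 fold change of the 14 was 0.15. *Pou3f1*, a POU factor that times the start of myelination and is also made in epidermis, had 9.24, 11.8 and 9.86 CPM in WT and 4.43, 5.06 and 4.89 CPM in KO (log2 fold change -1.10, SE 0.099, edgeR adjusted p = 1.94e-05). Its relative *Pou3f2* moved the other way, from 0.387 ± 0.0360 to 0.998 ± 0.146 CPM. *Tfap2a*, a factor of Schwann cell precursors and of keratinocytes, fell from 26.8 ± 5.41 to 9.90 ± 1.20 CPM. *Pax3*, a factor of the early lineage and of muscle progenitors, fell from 1.41 ± 0.317 to 0.854 ± 0.139 CPM, a call that was lost without WT replicate 2 or KO replicate 3. *Jun*, which holds back myelination, rose from 86.0 ± 3.41 to 98.5 ± 2.45 CPM and *Id2*, an inhibitor of basic helix-loop-helix factors, from 49.7 ± 1.65 to 58.6 ± 2.71 CPM, both below the fold limit.

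In the group of axon signals and their receptors, *Erbb2*, the partner of *Erbb3*, had 70.3, 87.7 and 76.4 CPM in WT and 53.1, 52.1 and 52.5 CPM in KO. Its log2 fold change was -0.57 (SE 0.070, edgeR adjusted p = 1.48e-04), just inside the fold limit, and the WT samples stood in the same order as for *Erbb3*. *Erbb2* was called lower with library size only (-0.64), without WT replicate 1 (-0.64) and without WT replicate 3 (-0.59). *Lgi4*, a ligand that Schwann cells secrete for myelination, was the gene of this group called higher, from 1.48 ± 0.141 to 2.34 ± 0.0619 CPM. *Ednrb*, an endothelin receptor, rose from 47.7 ± 0.748 to 62.3 ± 1.77 CPM, below the fold limit.

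Markers of immature and nonmyelinating Schwann cells had a median log2 fold change of 0.071 over 12 genes. Of these 12, 3 passed the test higher and 5 lower, beside 21.9% and 23.1% of all genes tested. *Scn7a*, a sodium channel of nonmyelinating Schwann cells, rose from 2.54 ± 0.174 to 6.62 ± 0.571 CPM, that is 1.38 in log2 fold change (edgeR adjusted p = 2.67e-06). *Ngfr*, the low-affinity neurotrophin receptor of immature Schwann cells, fell from 85.5 ± 4.27 to 70.6 ± 2.15 CPM, below the fold limit. *Gap43*, a growth protein of immature Schwann cells, did not pass the test (31.5 ± 2.46 CPM in WT, 30.7 ± 2.11 CPM in KO). *Mia* was called lower, with 13 to 16 counts in WT and 3 to 5 counts in KO, so its size is poorly fixed. The difference between this group and the compact myelin genes was not tested.

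**Figure D4:**
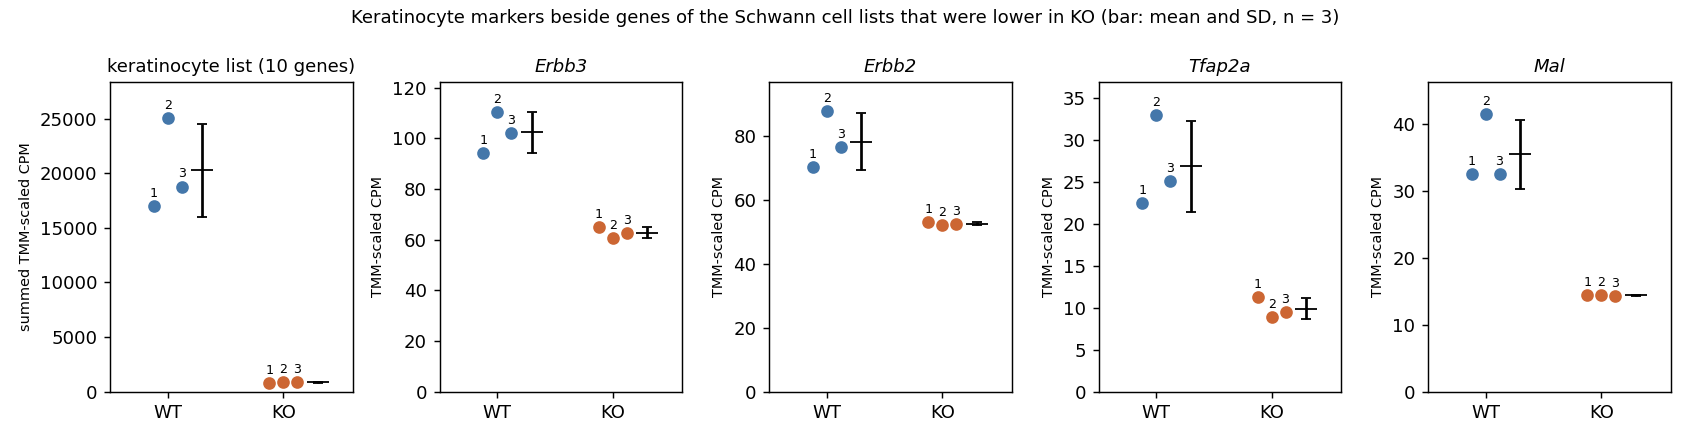
Summed level of 10 keratinocyte markers, in CPM, beside the CPM of *Erbb3*, *Erbb2*, *Tfap2a* and *Mal* in every sample, on axes that start at 0, with the mean and SD of 3 samples as bars. The keratinocyte sum lies between 16958 and 25009 CPM in WT and between 777 and 898 CPM in KO, and the 4 genes are highest in WT replicate 2. *Erbb2* was not called lower. *Gjb1*, *Ncmap* and *Pllp*, called lower but not drawn here, were highest in WT replicate 1.

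The order of the WT samples in the keratinocyte sum (replicate 1, then 3, then 2) recurred in 6 of the 9 Schwann cell genes called lower, *Erbb3*, *Tfap2a*, *Pou3f1*, *Pax3*, *Mal* and *Mia*. *Pllp*, *Ncmap* and *Gjb1*, also called lower, did not have this order. It recurred in 1 of the 8 called higher (*Lgi4*). Over all genes tested, 25.5% had this order, 57.0% of those called lower and 11.9% of those called higher. The Schwann cell genes thus lay near the shares of called genes in general, at 66.7% of those lower and 12.5% of those higher. Among the members it was also the order of *Sox10*, which rose, and of *Egr2*, which did not pass the test. The keratins *Krt1* and *Krt10*, the 2 most abundant markers of the list, fell from 9575 ± 1963 to 215 ± 56.1 CPM and from 5837 ± 1582 to 79.3 ± 23.9 CPM (SD, n = 3 each). The part of epidermal RNA in the values of the Schwann cell genes was not tested.

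Markers of other cells that share genes with glia were read in the same libraries. Melanocytes share *Sox10* and *Erbb3* with Schwann cells. Of 8 melanocyte markers 2 were called higher and 0 lower, beside 8.31% and 8.39% of all genes tested, and their median log2 fold change was -0.13. Those called were *Tyrp1* (2.26 ± 0.284 and 4.78 ± 0.585 CPM) and *Oca2* (6 to 12 counts in WT, 15 to 19 in KO). The sum of the 8 was 32.4 to 42.0 CPM in WT and 34.5 to 42.0 CPM in KO. *Dct* stood at 15.01 ± 2.77 and 12.6 ± 1.51 CPM and *Mitf* at 9.23 ± 0.103 and 11.5 ± 0.916 CPM. Of the defining markers of central nervous system glia, *Olig2* had 0 counts in all 6 samples, which allows up to 0.0366 CPM, and *Mog* had 8 to 15 counts. Of that list, *Aqp4*, which muscle fibers also make, rose from 0.683 ± 0.234 to 8.72 ± 2.82 CPM, and *Aldh1l1* fell from 8.89 ± 0.523 to 6.44 ± 0.490 CPM, below the fold limit. The sum over 9 markers of neuron cell bodies was 15.7 to 19.7 CPM in WT and 10.8 to 12.7 CPM in KO. *Nefm* fell from 7.15 ± 1.02 to 3.25 ± 0.591 CPM while *Prph* did not pass the test (3.14 ± 0.672 and 4.03 ± 0.169 CPM).

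Other cell types of the leg also moved between genotypes, and their part in the values of the members was not tested. Of 8 muscle fiber genes 7 were called higher, with *Myh8* at 4710 ± 501 and 14165 ± 1457 CPM and *Acta1* at 4513 ± 202 and 12495 ± 1707 CPM in WT and KO. Macrophage markers had 4 of 6 called higher, with *Mrc1* at 83.3 ± 2.97 and 156.9 ± 9.83 CPM. *Csf1r*, at 52.4 ± 3.71 and 66.8 ± 4.68 CPM, was below the fold limit. Of 8 endothelial markers, 6 passed the test higher, all below the fold limit. Of these, *Cdh5* stood at 263 ± 14.9 and 295 ± 8.22 CPM and *Pecam1* at 161 ± 1.01 and 209 ± 5.62 CPM. Fibroblast markers had 1 of 7 called higher. Of the 2 most abundant, *Col1a1* did not pass the test (18324 ± 1234 and 20477 ± 194 CPM). *Col3a1* passed as higher, below the fold limit (9591 ± 294 and 12227 ± 545 CPM). In the chondrocyte list *Col2a1* fell from 278 ± 41.7 to 141 ± 0.305 CPM and *Col11a2* did not pass the test (262 ± 12.8 and 261 ± 4.16 CPM). *Acan*, of the same list, passed as higher, below the fold limit (104 ± 9.94 and 138 ± 2.88 CPM). In the adipocyte list *Fabp4* rose from 109 ± 10.6 to 247 ± 22.2 CPM and *Adipoq* from 7.03 ± 3.48 to 44.9 ± 2.87 CPM.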

How the data were processed

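RNA-seq of leg muscle covered 3 WT and 3 *SYISL* KO samples. Per the paper's methods and the submitters' processing notes, the authors trimmed paired reads with Trim Galore 0.6.6, mapped them to mm10 with HISAT2 2.2.1 and counted them per gene with featureCounts 2.0.1. The authors deposited these raw counts both as 1 series table and per sample, and 0 values differed between them. Their annotation and strand setting are not given in the sources used here. The depth was 82054811 to 102233181 counts per sample. Symbols, positions and exon lengths came from GENCODE M21.

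Counts were analysed in R 4.3.3 with edgeR 4.0.16 (filterByExpr, TMM, quasi-likelihood F-test on genotype), with Benjamini-Hochberg adjustment over 22071 genes. CPM used TMM-scaled totals, RPKM divided these by exon length, and SEs were taken as the log2 fold change over the root of F. Tests were checked on simulated data. The members and gene lists were chosen with earlier results of these data known. Named genes were the members, every called gene of the 5 Schwann cell lists with the 2 most abundant uncalled ones of each by RPKM, the 2 most abundant of each other list (keratinocytes, melanocytes, chondrocytes, adipocytes, endothelium, fibroblasts, macrophages, immediate early genes, neurons, central glia and muscle fibers), and the 5 genes most like *Sox10*. Values of 2 compact myelin genes are not reported here, though list counts and medians include them. Alternatives were RLE and upper-quartile factors, library size only, 2 other filters, DESeq2 1.42.0, limma-voom (limma 3.58.1), a replicate block, other fold limits, other pseudocounts, each sample left out, and, chosen after seeing the data, the keratinocyte level within genotype as a covariate.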

Additional observations from a re-analysis of the deposited data

How the results depend on the processing

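Of 120 member log2 fold changes recomputed under 15 alternatives, 114 kept their direction and call, 4 (all of *Mag*) lost the call, 2 (both of *Mbp*) gained it and 0 changed direction. *Sox10*, *Erbb3*, *Pmp22*, *Mbp*, *Mag* and *Prx* passed the adjusted p of 0.05 in all of these. The keratinocyte covariate among them was centered within genotype, so it left the keratinocyte difference between WT and KO unadjusted. Members called higher numbered 2 with upper-quartile factors, 0 with library size only, 0 with a fold change over 2 and 5 with no fold limit, and 0 to 2 with 1 sample left out. Members called lower numbered 0 with a fold change over 2. The other Schwann cell genes called lower numbered 5 with a fold change over 2, 16 with no fold limit, and 5 (without KO replicate 3) to 8 with 1 sample left out, and those called higher 22 with no fold limit. Over all genes, 1835 were called higher and 1852 lower. These counts became 774 and 1269 with a fold change over 2, 4838 and 5098 with no fold limit, 2188 and 1673 with upper-quartile factors, and 1528 and 2088 with library size only. The ratio of *S100b* to *Sox10* reversed without WT replicate 1 (0.037), with values from -0.23 to 0.037 when 1 sample was left out. The median log2 fold change of all genes was 0.064 with upper-quartile factors and -0.073 with library size only. The labels do not say whether replicate numbers mark pairs, and the samples were treated as unpaired. Deviations of same-numbered WT and KO samples correlated at -0.20, -0.14 and 0.045. With 3 samples per group, these values cannot show whether same-numbered samples shared a litter or batch. A replicate block gave 1744 genes higher and 1777 lower, with 1 member called in each direction and 7 and 8 other Schwann cell genes. Of the genes called in few counts, *Gjb1* and *Mia* were not tested with at least 10 counts in every sample, so that filter gave no value for them. The cause of these changes was not tested, other than that the fold limits act by construction. Depth sets what a count of 0 can hide, up to 3 counts, and genes with few counts, such as *Pllp* and *Mia*, are also less well measured.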
